A study of Mus musculus with 28 samples.

Results

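The 174 genes described here encode the antibody chains read in RNA-seq libraries of mouse adipose tissue with and without Fgf13, an intracellular member of the fibroblast growth factor family. They are every gene whose symbol starts with Ighv, Igkv, Iglv, Ighm, Ighd, Ighg, Igha, Ighe, Igkc, Iglc or Jchain and whose value was at least 1 in 2 or more columns of at least 1 of the 5 depot tables. Members were thus chosen by their own measured level, over knockout and control libraries alike, and that they are expressed is not a result. Of 377 symbols with those prefixes, 175 met the rule, and 1 of these, Ighmbp2, encodes a helicase that is not an immunoglobulin and was left out. The 174 are 80 heavy chain V segments, 79 kappa V segments (1 of them annotated as a pseudogene), 3 lambda V segments, 7 heavy chain constant genes, the kappa constant gene Igkc, 3 lambda constant genes and Jchain. Ighe, Iglc4 and 14 heavy chain D segments did not meet the rule. The values just inside it, as the second highest value of a segment in its best table, were 1.03 for Igkv6-14, 1.14 for Ighv3-1 and 1.25 for Igkv3-9. The values just outside were 0.709 for Igkv9-123, 0.690 for Ighv1-37 and 0.656 for Ighv13-2.

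The 28 libraries are 13 knockout and 15 control libraries in 5 sets. Inducible adipose knockout of Fgf13 was compared with control in epididymal (ieWAT, 3 against 3) and subcutaneous white fat (isWAT, 2 against 3), and constitutive adipose knockout in subcutaneous white fat (sWAT, 3 against 3) and brown fat (BAT, 2 against 3), all from obese mice after 20 weeks of a high fat diet. A further epididymal set (eWAT, 3 against 3) carries the genotype labels Fgf13 KO and WT, with no knockout type or diet. The labels name neither the Cre line nor the animals behind a library, so p-values measure the spread between these samples only. Values are FPKM (scaled to library size and gene length) in eWAT and CPM (scaled to library size alone) in the other 4 sets, and the sets are not compared in level. Read totals per library were 13490948 to 21241811 for sWAT, 14951333 to 21246286 for BAT, 29857189 to 43624353 for ieWAT and 37700750 to 48812592 for isWAT, while the depth of eWAT is unknown. Fgf13 itself was lower in every knockout library of the first 4 sets, for example 25.2, 22.6 and 33.4 CPM in ieWAT knockout against 51.4, 41.8 and 39.7 CPM in control. In eWAT it was not: 23.1, 17.6 and 27.0 FPKM in the libraries labelled knockout against 20.4, 27.6 and 12.9 FPKM in control, so every eWAT direction given here rests on labels that this gene does not separate. The adipocyte gene Adipoq was present in every library (527 to 3172 CPM, and 412 to 1530 FPKM in eWAT).

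An antibody heavy or light chain is made from a V segment that each B cell joins to a short J piece and splices to a constant gene. In heavy chains a short D piece lies between V and J. The constant gene sets the isotype: Ighm for IgM, Ighd for IgD, Ighg1, Ighg2b, Ighg2c and Ighg3 for the IgG classes and Igha for IgA, while Igkc and the Iglc genes end the kappa and lambda light chains, and Jchain links IgM and IgA into polymers. B cells carry these transcripts at a moderate level and plasma cells at a very high one, and epididymal fat of obese mice is known to hold B-2 cells, B-1 cells and IgM- and IgG-secreting cells. In bulk tissue, fewer B lineage cells and less immunoglobulin RNA per cell cannot be told apart.

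Germline V segments are short and many resemble one another, which limits how surely a read belongs to one of them. The following 8 are the V segments of 2 known B-1 pairs, 2 of the segments called in eWAT and 2 held in excess by single sWAT libraries, shown as the last 90 bases of the annotated segment (GENCODE M21, GRCm38), 5′ to 3′ on the coding strand. Capitals run from the codon of the last cysteine to the end of the segment, the germline start of the third complementarity-determining region, where the D or J piece is joined.
Ighv11-2: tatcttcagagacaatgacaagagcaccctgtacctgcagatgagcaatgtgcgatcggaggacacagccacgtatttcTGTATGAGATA
Igkv14-126: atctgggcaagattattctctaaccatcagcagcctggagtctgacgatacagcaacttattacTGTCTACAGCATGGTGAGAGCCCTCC
Ighv12-3: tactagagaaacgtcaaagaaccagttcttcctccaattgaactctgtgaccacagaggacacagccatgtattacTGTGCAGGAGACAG
Igkv4-91: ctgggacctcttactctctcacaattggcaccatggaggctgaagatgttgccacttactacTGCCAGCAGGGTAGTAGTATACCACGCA
Igkv17-121: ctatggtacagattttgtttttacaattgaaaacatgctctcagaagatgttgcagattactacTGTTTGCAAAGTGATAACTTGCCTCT
Igkv5-39: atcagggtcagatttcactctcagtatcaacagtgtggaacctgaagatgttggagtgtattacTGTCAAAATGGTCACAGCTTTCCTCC
Ighv1-15: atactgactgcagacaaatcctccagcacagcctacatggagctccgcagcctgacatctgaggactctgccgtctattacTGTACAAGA
Igkv6-15: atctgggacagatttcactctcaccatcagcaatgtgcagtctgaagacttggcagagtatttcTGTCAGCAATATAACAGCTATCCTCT

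Ighv11-2 (chr12:114048241-114048812, minus strand) with Igkv14-126 (chr6:67896172-67896642, plus strand), and Ighv12-3 (chr12:114366521-114366954, minus strand) with Igkv4-91 (chr6:68768555-68769103, minus strand), are the pairs known from mouse peritoneal B-1 cells that bind phosphatidylcholine. Igkv17-121 (chr6:68036812-68037318, plus strand) and Igkv6-15 (chr6:70406469-70406992, minus strand) are among the segments called lower in eWAT. Igkv5-39 (chr6:69900424-69900977, minus strand) and Ighv1-15 (chr12:114657353-114657786, minus strand) are segments that single sWAT libraries held in excess. The coordinates are those of the annotation, and which build and annotation the authors used is not stated in the labels. Cut into words of 31 bases, the median heavy V segment shared 44.5% of its words with another annotated gene and the median kappa V segment 50.8%, with 31 of 80 and 40 of 79 segments sharing over 50%. Igkv14-126 shared 5.79%, Igkv4-91 10.98%, Igkv5-39 15.8%, Igkv6-15 36.0%, Ighv1-15 45.2%, Igkv17-121 46.3% and Ighv11-2 50.6%, the last 2 with a single relative each, Igkv17-127 and Ighv11-1. Ighm, Igha, Igkc and Jchain shared none, so the sequence of these 4 recurs in no other annotated gene at that word length. Igkc lies within the span of the long noncoding RNA gene Gm30211 on the same strand, but shares no 31-base word with its transcripts in this annotation. Iglc1 and Iglc3 overlap the span, introns included, of an antisense gene. Whether its exons overlap theirs was not examined.

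Immunoglobulin transcripts were higher in knockout than in control ieWAT in summed level, though no single gene passed the test. The 174 genes together took 11324, 6336 and 10025.5 CPM in knockout against 4817, 3340 and 1517 CPM in control libraries. All knockout libraries lay above all controls, with means of 9228 ± 2588 and 3225 ± 1653 CPM (SD, n = 3 each) and a ratio of 2.86. The summed V segments took 1875, 1013 and 1827 CPM in knockout against 813, 481 and 106 CPM in control.

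Igkc, which ends most mouse light chains, had 2672, 1309 and 2271 CPM in knockout against 1013, 688 and 150 CPM in control ieWAT. The groups did not overlap, with a log2 change on the log2(CPM + 1) scale of 2.08 ± 0.75 (SE, limma adjusted p = 0.9999). Ighm had 5169, 3129 and 4692 CPM in knockout against 2099, 1830 and 1166 CPM in control, a log2 change of 1.36 ± 0.28 with the same adjusted p. DESeq2 on the recovered reads called Ighm higher in knockout (log2 change 1.32, adjusted p = 0.0002717). Jchain had 258, 204 and 323 CPM in knockout against 180, 85.7 and 17.6 CPM in control (1.96 ± 0.86). Here too every knockout library lay above every control, but the third control was far below the other controls for Igkc and Jchain and less so for Ighm.

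Of the 174 genes, 129 passed the filter of at least 1 CPM in 3 ieWAT libraries, 115 of them with such a value in both groups and 14 in knockout libraries alone, which had to come out higher. Limma called 0 of 14749 genes, a background of 0%, and DESeq2 on the recovered reads called 32 genes (0.217%), of which 15 were immunoglobulin genes, all of them higher. EdgeR called 0 (0%). At an unadjusted p under 0.05, limma held 56 of the 129 against 2.62% of all genes. Every knockout library lay above every control for 52 of the 129 against 3.43% of all genes, and for 0 did every knockout library lie below, against 1.68%. The median log2 change was 1.36 over the 129 and 0.02 over all genes, and 124 of the 129 had a change above 0, against 55.8% of all genes.

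**Figure D1:**
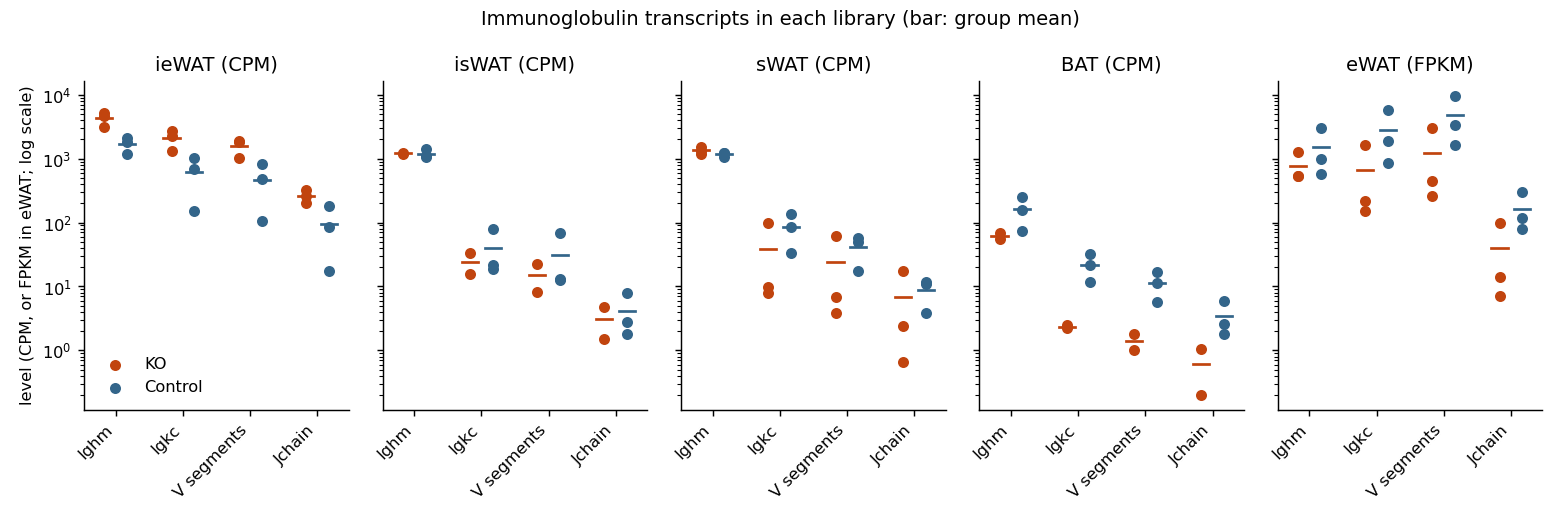
Level of Ighm, Igkc, the summed V segments and Jchain (CPM, or FPKM in eWAT, log scale) in each library of the 5 sets; points are libraries, short bars group means, red knockout and blue control. Knockout points lie above control points in ieWAT and below them in BAT for all 4, and the Ighm points of isWAT and sWAT stay between 1055 and 1521 CPM.

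The smallest unadjusted p-values in ieWAT belonged to kappa segments of low level. Igkv4-50 had 1.42, 1.98 and 1.54 CPM in knockout against 0.255, 0 and 0.332 CPM in control (1.15 ± 0.19 on the log2(CPM + 1) scale). It passed the filter through knockout libraries alone, so it had to come out higher. Igkv4-91, the kappa partner of Ighv12-3, had 8.86, 5.63 and 8.21 CPM in knockout against 2.30, 1.14 and 0.211 CPM in control (2.05 ± 0.36). Neither passed with limma (adjusted p = 0.9999), and DESeq2 called Igkv4-91 (adjusted p = 0.02981). Ighv1-81 (2.40 ± 0.46), Igkv8-19 (1.48 ± 0.30) and Igkv1-135 (1.84 ± 0.37) followed, each with all knockout libraries above all controls.

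Part of the ieWAT V segment signal came from 1 knockout library. Igkv17-121 had 4.03, 13.5 and 147 CPM in knockout against 0.944, 0.515 and 0.694 CPM in control ieWAT. This segment passed the filter through knockout libraries alone, so it had to come out higher. Igkv19-93 had 35.7, 17.4 and 202 CPM in knockout against 19.4, 6.15 and 4.05 CPM in control. Ighv1-9 had 9.60, 13.97 and 113 CPM in knockout against 15.6, 9.64 and 2.17 CPM in control. The third knockout library thus held most of the knockout reads of these 3 segments, and for Igkv19-93 and Ighv1-9 the groups overlapped. The 5 genes tested with a change below 0 included Igkv4-57-1, which had 1.61, 2.95 and 1.21 CPM in knockout against 7.91, 1.06 and 0.694 CPM in control.

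In eWAT most immunoglobulin genes had lower values in the libraries labelled knockout, with wide spread among controls. Their sum was 1252, 6190 and 976 FPKM in the libraries labelled knockout against 19587, 3411 and 6774 FPKM in control. The groups overlapped, because the second knockout library exceeded the second control, and the ratio of means was 0.283 (log2 −1.82). Without the first control, which held the highest value, the log2 ratio was −0.86, and without the second library labelled knockout it was −3.155. Igkc had 219, 1626 and 151 FPKM in the libraries labelled knockout against 5751, 855 and 1919 FPKM in control (−2.48 ± 1.19 on the log2(FPKM + 1) scale, limma adjusted p = 0.2128).

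Of 145 members that passed the filter in eWAT, 139 reached 1 FPKM in both groups and 6 in controls alone, which had to come out lower. Limma called 11, all lower, which is 7.59% of those tested against 14.9% of all genes in either direction and 4.7% in the lower direction. Every library labelled knockout lay below every control for 36 of the 145, against 19.6% of all genes. The median log2 change was −1.77 over the 145 and −0.02 over all genes, and 8 of them had a change above 0, against 46.4% of all genes. At an unadjusted p under 0.05, limma held 33 of the 145 against 33.9% of all genes. The 11 are V segments, of which 8 are kappa and 3 heavy.

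Igkv17-121 had 0, 1.97 and 1.25 FPKM in the libraries labelled knockout against 24.4, 18.5 and 27.5 FPKM in control eWAT, a log2 change of −3.68 ± 0.41 (adjusted p = 0.01217, limma). Igkv4-72 had 0.113, 1.501 and 0.311 FPKM in the libraries labelled knockout against 33.6, 13.0 and 14.7 FPKM in control (−3.67 ± 0.44, adjusted p = 0.01218). Igkv4-57-1 was listed at 0, 1.62 and 0 FPKM in the libraries labelled knockout against 15.7, 26.2 and 11.9 FPKM in control (−3.71 ± 0.46, adjusted p = 0.01218). In these 3 segments the lowest control lay far above the highest library labelled knockout.

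Igkv6-15, the most abundant of the called segments in control eWAT, had 1.26, 2.21 and 0.431 FPKM in the libraries labelled knockout against 103, 69.5 and 13.3 FPKM in control (−4.44 ± 0.83, limma adjusted p = 0.03147). Its relatives Igkv6-25 and Igkv6-13, which share words with other Igkv6 segments, changed by −4.02 ± 0.54 and −3.51 ± 0.68 (adjusted p = 0.01281 and 0.02834). Among heavy segments, Ighv8-5 (−2.17 ± 0.28), Ighv3-8 (−2.97 ± 0.40) and Ighv6-3 (−3.06 ± 0.69) were called. The remaining called kappa segments were Igkv2-137 (−2.97 ± 0.44) and Igkv8-21 (−1.97 ± 0.45). None of the 11 passed without the third knockout library, when 12 genes were called in all. None passed in the deposited TPM table, whose columns carry the same library labels. In TPM the immunoglobulin sum was 4632, 6783 and 411 in the libraries labelled knockout against 28040, 1442 and 13940 in control. The first library labelled knockout thus lay above the second control in TPM and below it in FPKM. As a share of the FPKM column total it also lay below, at 0.193% against 0.539%. Rescaling each FPKM column to TPM would keep the order of these shares, so the TPM values are not the FPKM values rescaled. Why the 2 deposited tables differ in this order was not tested.

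The level of the abundant eWAT segments varied between controls far more. Igkv3-2 had 11.9, 30.5 and 0.176 FPKM in the libraries labelled knockout against 1806, 53.1 and 530 FPKM in control eWAT, without overlap (adjusted p = 0.105, limma). Ighv1-53 had 5.26, 24.5 and 1.23 FPKM in the libraries labelled knockout against 832, 25.9 and 97.9 FPKM in control (adjusted p = 0.1377). Ighv8-8 had 37.2, 130 and 4.56 FPKM in the libraries labelled knockout against 46.3, 34.3 and 13.3 FPKM in control (0.07 ± 1.27), a change close to 0. The first control held the highest value of Igkv3-2 and Ighv1-53, and the second control lay near the second knockout library.

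Other cell types differed in the same eWAT comparison. Adipocyte genes were higher in the libraries labelled knockout (6 of 7 called), and macrophage genes were lower (4 of 6 called). Of all genes, 14.9% were called in either direction. Adipoq had 1294, 1468 and 1530 FPKM in the libraries labelled knockout against 687, 614 and 412 FPKM in control. The part of these shifts in the immunoglobulin result was not tested.

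Of 121 immunoglobulin genes tested in both epididymal sets, 111 had a change above 0 in ieWAT and below 0 in eWAT, against 26.6% of all 13280 genes tested in both. For 10 of the 121 the groups were also free of overlap in each set, with knockout above control in ieWAT and below it in eWAT, against 0.414% of all genes. The members were read in the same libraries and are not independent of one another. The sets share no libraries and differ in unit, in knockout type as far as stated, and in whether Fgf13 was lower, and the difference between them was not tested.

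**Figure D2:**
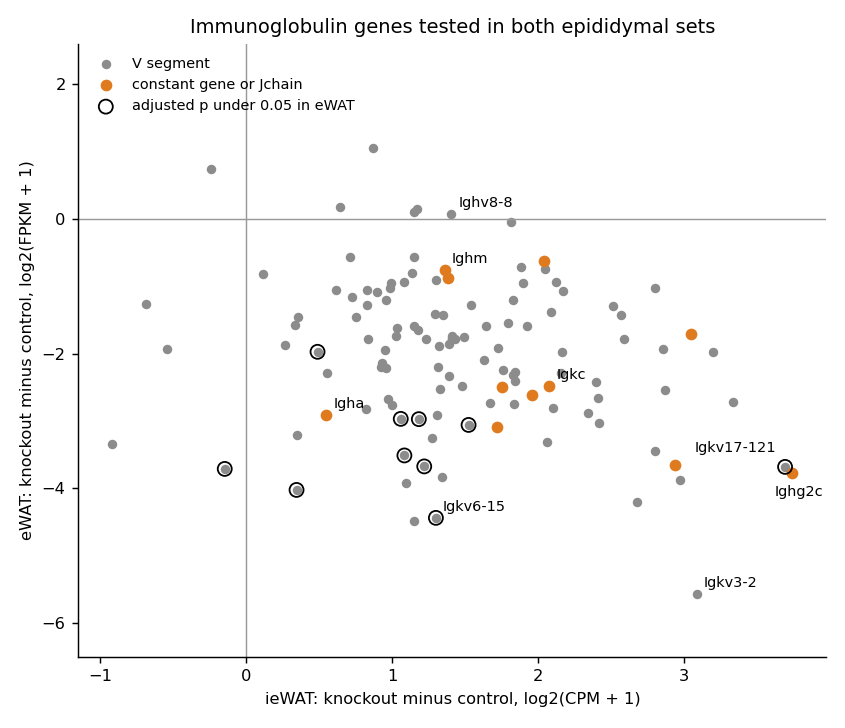
Log2 change, knockout minus control, of the 121 immunoglobulin genes tested in both epididymal sets, in ieWAT (x axis, log2(CPM + 1)) and in eWAT (y axis, log2(FPKM + 1), as labelled); grey points are V segments, orange points constant genes or Jchain, and circles genes called in eWAT. Most points, 111 of 121, lie at the lower right, above 0 in ieWAT and below 0 in eWAT.

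Among switched isotypes in ieWAT, Igha made up less and the IgG genes more of the reads in knockout libraries. Igha had 203, 248 and 171 CPM in knockout against 483, 153 and 36.7 CPM in control, and the knockout values lay inside the control range. Ighg2c had 598, 80.3 and 129 CPM in knockout against 36.5, 4.36 and 12.1 CPM in control (3.74 ± 1.05 on the log2 scale, limma adjusted p = 0.9999). Ighg2b had 218, 144 and 289 CPM in knockout against 73.6, 20.96 and 11.4 CPM in control (2.94 ± 0.69, same adjusted p). All 4 IgG genes lay higher in every knockout library than in any control, as did 52 of the 129 members tested and 3.43% of all genes. Ighd, which marks B cells that have not switched, overlapped at 26.5, 13.2 and 19.0 CPM in knockout against 22.6, 2.98 and 3.71 CPM in control.

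Igha made up 18.7%, 43.8% and 21.4% of the reads of switched isotypes (IgG and IgA, with IgE left out) in knockout ieWAT, against 76.2%, 79.3% and 60.1% in control. These shares rest on 16911 to 35065 switched reads per knockout library and 2020 to 24835 per control library. Their 95% Wilson intervals, which cover counting error only, spanned 43.1% to 44.6% in the highest knockout library and 58.0% to 62.3% in the lowest control. Per kilobase of annotated exon the order was the same, with means of 22.8 ± 13.6% in knockout and 66.3 ± 14.3% in control (SD, n = 3 each). Ighm made up 82.3%, 84.4% and 85.2% of heavy constant reads in knockout and 76.2%, 90.3% and 94.7% in control, so its share overlapped. In eWAT the Ighm share was 97.3%, 93.7% and 98.0% in the libraries labelled knockout against 81.8%, 85.4% and 83.5% in control, without overlap.

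In isWAT the Igha share was also lower in knockout, on far fewer reads. It was 68.3% and 72.0% of 400 and 532 switched reads in knockout libraries, against 94.5%, 92.6% and 91.6% of 545 to 775 reads in control. The Wilson intervals reached 75.6% at most in knockout and 88.9% at least in control. Igha itself had 7.24 and 9.20 CPM in knockout against 14.5, 18.7 and 10.2 CPM in control isWAT (−0.72 ± 0.23, limma adjusted p = 0.3242). Ighg2b had 1.03 and 3.19 CPM in knockout against 0.643, 0.443 and 0.492 CPM in control (0.94 ± 0.30, adjusted p = 0.3193). Neither passed, both were free of overlap between groups, and these were the only members without overlap among the 11 tested in isWAT: 1 above against 12.2% of all genes and 1 below against 19.4%. Ighg2b passed the filter through knockout libraries alone, so it had to lie above.

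In sWAT the Igha share was 90%, 87.1% and 91.1% in knockout against 92.0%, 86.5% and 34.8% in control. The third control stood apart: its 830 switched reads were mostly IgG, with 17.8 CPM of Ighg2b, and it held 53.7 CPM of Ighd against 4.37 to 12.6 CPM in the other controls. In BAT, with 37 and 8 switched reads in knockout and 87 to 325 in control, the share ran from 91.9% to 100% in knockout and from 81.5% to 96.6% in control. In eWAT the Igha share ran from 19.1% to 82.3% in the libraries labelled knockout and from 19.9% to 87.8% in control. Groups were free of overlap in ieWAT and isWAT and overlapped in the other 3 sets. The difference between sets was not tested.

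The lambda share of light constant reads did not separate the groups outside BAT. It was 8.13%, 7.26% and 4.04% in knockout against 5.25%, 8.12% and 8.12% in control ieWAT. In BAT it was 6.82% and 10.8% in knockout against 3.45%, 4.49% and 3.01% in control, on few reads. By level, the summed lambda constant genes were free of overlap in ieWAT, with means of 145 CPM in knockout and 43.4 CPM in control. The same held in eWAT (64.9 FPKM as labelled knockout and 238 FPKM in control) and BAT (0.226 and 0.808 CPM). Of all genes, 3.43% lay above every control in all knockout libraries of ieWAT. Below every control lay 19.6% in eWAT and 38.1% in BAT. The BAT knockout sums were 0.185 and 0.268 CPM, where 1 read is 0.0615 and 0.0669 CPM.

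**Figure D3:**
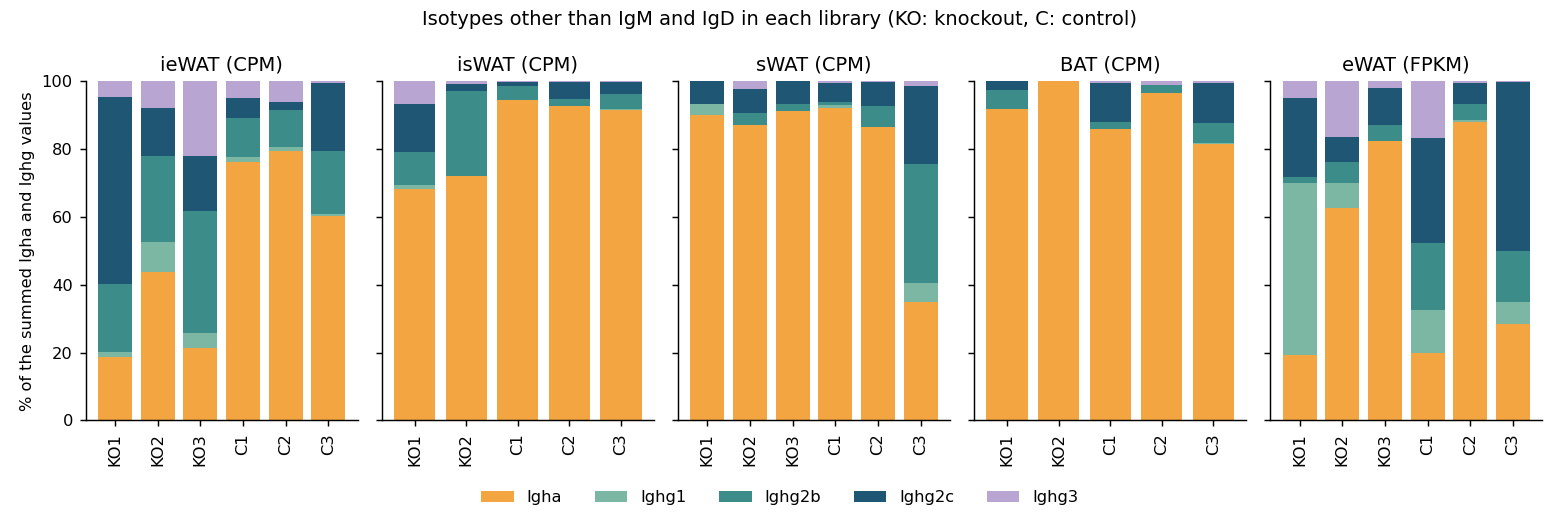
Share of Igha and the 4 IgG genes in their summed value (%, y axis) in each library, stacked bars, knockout libraries (KO) left of controls (C). Igha (orange) is the smaller part in the 3 ieWAT knockout libraries, at 18.7 to 43.8%, and the larger part in the 3 controls, at 60.1 to 79.3%.

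Ighm in the subcutaneous sets did not follow the other immunoglobulin genes. It stayed between 1055 and 1521 CPM in all 11 subcutaneous libraries and made up 76.6% to 98.1% of the summed immunoglobulin reads there. Igkc meanwhile ran from 7.95 to 134 CPM and Cd79a, a part of the B cell receptor on every B cell, from 1.45 to 48.8 CPM. Per kilobase of exon, the level of Ighm was 10.6 to 20.9 times that of Igkc in knockout isWAT and 4.86 to 15.9 times in control isWAT. In sWAT it was 3.86 to 43.2 times in knockout and 2.26 to 10.2 times in control. In BAT the ratio was 6.14 and 8.62 in knockout and 0.966 to 3.72 in control. In ieWAT it was 0.546 to 0.674 in knockout and 0.584 to 2.19 in control. In eWAT it was 0.766 to 3.55 in the libraries labelled knockout and 0.515 to 0.674 in control. No Ighm exon overlaps another annotated gene, and Ighm shares no 31-base word with one; no overlapping or look-alike gene was found for these reads, and their source was not tested.

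The sums in isWAT and sWAT therefore mostly report Ighm. With it they were 1220 and 1324 CPM in knockout against 1575, 1118 and 1153 CPM in control isWAT, and 1221, 1536 and 1554 CPM in knockout against 1298, 1400 and 1402 CPM in control sWAT. Without it they were 44.2 and 84.4 CPM in knockout against 186, 63.3 and 63.2 CPM in control isWAT, and 22.7, 206 and 33.4 CPM in knockout against 86.4, 186 and 328 CPM in control sWAT. The groups overlapped in all 4 of these sums.

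Of the members, 11 were tested in isWAT and 10 in sWAT, and limma called none, against 0.00701% and 0.0217% of all genes. At an unadjusted p under 0.05 limma held 2 in isWAT (13.1% of all genes) and 0 in sWAT (9.66%). EdgeR called 0 members in either set, against 0.00701% of all isWAT genes and 0.00724% of all sWAT genes, and DESeq2 0, against 1.82% and 0.376%. The median log2 change was −0.29 in isWAT and −0.97 in sWAT, against −0.03 and −0.05 over all genes. None of the 10 tested sWAT members was free of overlap between groups, against 3.8% of all genes with knockout above and 12.3% with knockout below.

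**Figure D4:**
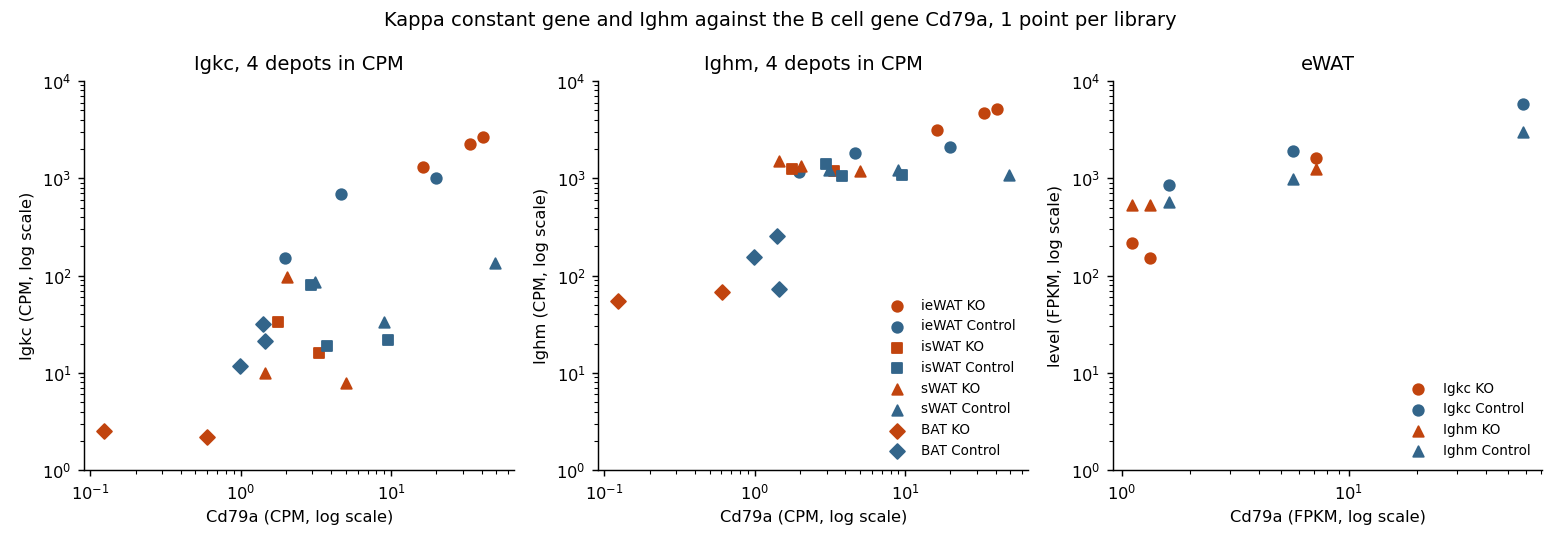
Igkc (left) and Ighm (middle) against Cd79a in the 22 CPM libraries, and both in the 6 eWAT libraries (right), log scales; each point is 1 library, red knockout and blue control. Igkc spreads upward with Cd79a across sets, while Ighm lies level at 1055 to 1521 CPM in isWAT (squares) and sWAT (triangles).

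In BAT immunoglobulin transcripts were rare and lower in knockout. Their sum was 63.1 and 72.4 CPM in knockout against 187, 115 and 327 CPM in control, a ratio of 0.323 without overlap. Most of that sum was Ighm, at 87.0% and 93.3% in knockout and 63.4% to 83.8% in control. Without Ighm the sum was 8.18 and 4.88 CPM in knockout against 30.3, 42.1 and 74.4 CPM in control. Igkc had 2.52 and 2.21 CPM in knockout against 11.9, 21.3 and 32.1 CPM in control (−2.66 ± 0.40, limma adjusted p = 0.2374). Igha had 2.09 and 0.535 CPM in knockout against 8.10, 5.27 and 13.9 CPM in control (−2.12 ± 0.47, same adjusted p). Both lay lower in each knockout library than in any control.

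Of 7 members tested in BAT, 4 reached 1 CPM in both groups and 3 in controls alone. The filter itself favoured lower knockout values for these 3. Limma called 0 of the 7 and 1 gene in all (0.00755%), and edgeR called 0. DESeq2 on the reads called 791 genes (5.97%), among them Igkc (adjusted p = 5.883e-09), Igha (0.002646) and Igkv3-2 (0.02505). Every knockout library lay below every control for 5 of the 7, but the same held for 38.1% of all genes, and the median gene changed by −0.18. For 0 members did every knockout library lie above (6.37% of all genes), and 0 had a change above 0 (23.6%). All these counts include the 3 members that passed the filter through controls alone. The 6 macrophage genes tested were below control in both knockout libraries as well, as were all 7 immunoglobulin receptor genes, among them the Fc receptor genes Fcgr1, Fcgr2b, Fcgr3 and Fcgr4. The summed level of the macrophage list was 112 to 115 CPM in knockout and 269 to 1117 CPM in control, and that of 5 skeletal muscle genes 0.7999 to 4559 CPM in knockout and 5.77 to 922 CPM in control. The part of these in the immunoglobulin result was not tested.

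The number of V segments in use was compared between groups at a fixed number of reads. In ieWAT, 90 to 94 of the 185 heavy V segments in the table, members or not, had a read in knockout libraries and 63 to 90 in control libraries. At 1127 heavy V reads per library, the depth of the shallowest, the expected number was 70.5, 76.2 and 69.1 in knockout against 71.4, 69.6 and 63.0 in control. The effective number of heavy segments (inverse Simpson index) was 29.9, 28.8 and 14.1 in knockout against 23.9, 23.2 and 16.4 in control. For kappa it was 22.9, 25.7 and 13.6 in knockout against 27.3, 19.9 and 13.8 in control, so diversity overlapped at both loci.

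The leading segments were not shared by the ieWAT knockout libraries. Igkv4-55 led with 12.2% of kappa V reads in the first, Igkv10-96 with 9.60% in the second and Igkv19-93 with 17.4% in the third knockout library. In the 3 controls Igkv14-126 led, with 9.85%, 15.4% and 18.6%. Its share in knockout ieWAT was 3.77%, 4.31% and 11.99%, so that the groups overlapped. Its level did too, at 45.3, 28.1 and 139 CPM in knockout against 51.5, 47.8 and 12.02 CPM in control (0.84 ± 0.81, limma adjusted p = 0.9999).

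Ighv11-2, its heavy partner in B-1 cells, took 2.47%, 2.97% and 8.99% of heavy V reads in knockout against 7.49%, 12.4% and 10.5% in control ieWAT. It was high in the libraries where Igkv14-126 was high. The same held in isWAT, where the first control had 30.1% Ighv11-2 and 39.9% Igkv14-126, and in sWAT, where the second knockout library had 31.6% and 35.5%. In BAT the second control had 40.4% of 52 heavy V reads and 43.9% of 123 kappa V reads. In eWAT Igkv14-126 led in all 3 libraries labelled knockout, at 23.1%, 13.6% and 24.7%, and in the second control at 20.6%.

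Ighv12-3, of the other phosphatidylcholine-binding pair, was scarcer. It had 1.73, 1.34 and 0.619 CPM in knockout against 0.332, 0.488 and 0.121 CPM in control ieWAT, without overlap. Every knockout library lay above every control for 3.43% of all genes tested there. Only the first and second knockout libraries reached 1 CPM, so Ighv12-3 missed the filter and was not tested. Its control values rest on 13, 18 and 4 reads. In eWAT it had 1.05, 11.7 and 0.205 FPKM in the libraries labelled knockout against 8.88, 0.534 and 8.70 FPKM in control. Its partner Igkv4-91 had 3.97, 60.4 and 1.61 FPKM in the libraries labelled knockout against 27.4, 3.80 and 26.5 FPKM in control eWAT. Both segments were highest of all in the second eWAT library labelled knockout.

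Single libraries of the subcutaneous sets held 1 heavy and 1 kappa segment in great excess. In the second sWAT control, Ighv1-15 took 62.5% of 251 heavy V reads (Wilson interval 56.4% to 68.3%) and Igkv5-39 58.8% of 481 kappa V reads (54.4% to 63.1%). In the second sWAT knockout library Igkv5-39 led again with 37.3% of 620 kappa V reads, this time beside Ighv1-53 with 33.6% of 247 heavy V reads. Ighv1-15 had no read in any sWAT knockout library and 0.0471, 11.6 and 0.122 CPM in control. Igkv5-39 had 0, 16.1 and 0 CPM in knockout against 0, 20.98 and 1.59 CPM in control sWAT. The effective number of heavy segments was 2.50 in the second control, against 28.0 in the third control, whose leading segment Ighv8-8 took 10.2% of 236 reads. BAT had 9 and 3 heavy V reads in knockout and 36 to 89 in control, too few for a measure of diversity.

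**Figure D5:**
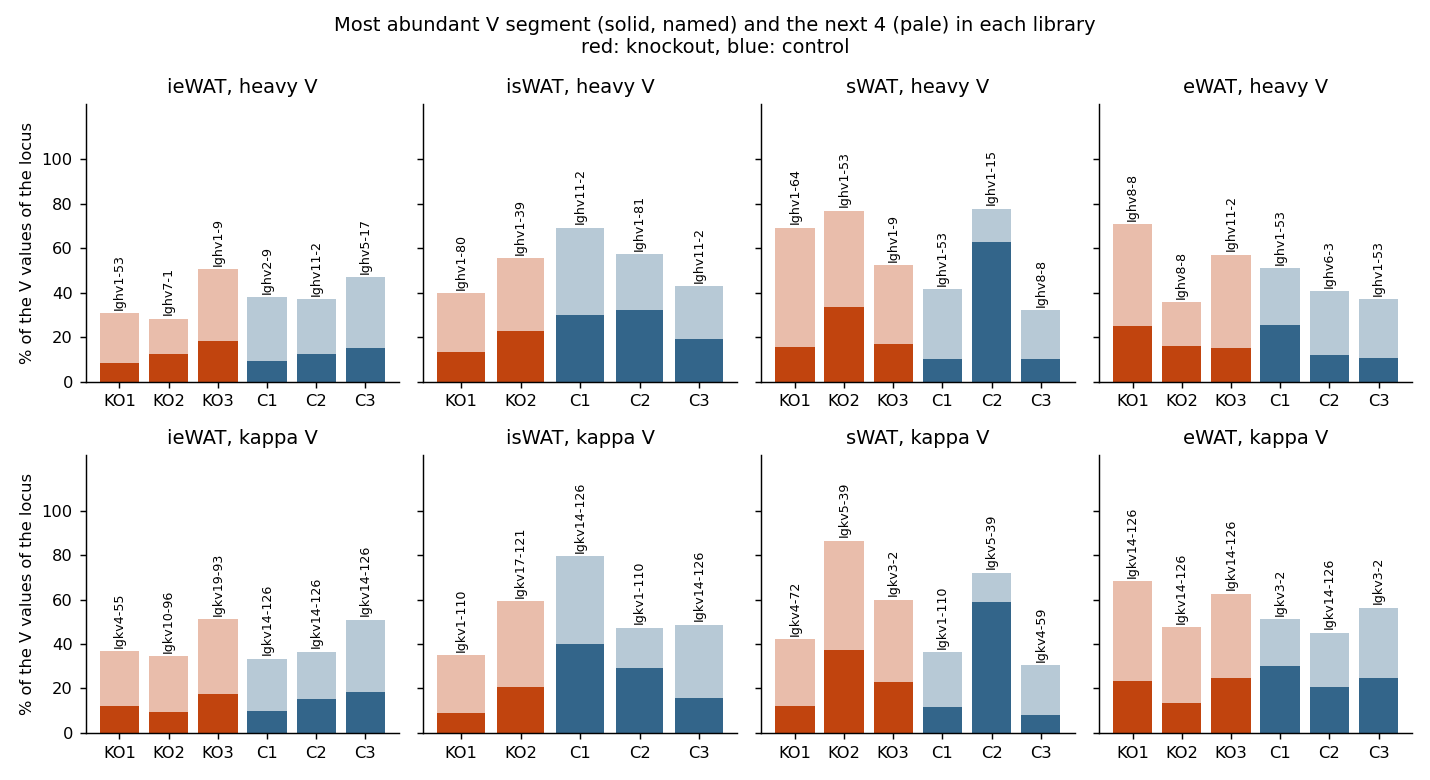
Share of the most abundant V segment (solid, its name above the bar) and of the next 4 (pale) in the V values of the heavy (top) and kappa locus (bottom), in each library of 4 sets, knockout (red) left of control (blue). The second sWAT control reaches 62.5% for Ighv1-15 and 58.8% for Igkv5-39, while no leading segment of ieWAT exceeds 18.6%.

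B cell genes outside the antibody loci were read in the same libraries, and their part in the immunoglobulin result was not tested. Of 17 B cell lineage genes, 16 were tested in ieWAT and none was called; their median log2 change was 1.27, against 0.02 over all genes. Cd79a had 40.7, 16.3 and 33.4 CPM in knockout against 19.8, 4.63 and 1.96 CPM in control ieWAT (2.06 ± 0.77, limma adjusted p = 0.9999). Mzb1, a chaperone that helps assemble IgM in B lineage cells, belongs to the plasma cell list. It had 16.6, 9.88 and 17.4 CPM in knockout against 7.30, 4.79 and 0.845 CPM in control. Cd79a overlapped between groups and Mzb1 did not. In ieWAT every knockout library lay above every control for 2 of the 16 B cell lineage genes tested. The same held for 2 of the 13 plasma cell genes and 3.43% of all genes.

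The median of the B cell lineage list was −0.98 in eWAT, −0.69 in BAT, −0.29 in isWAT and −1.35 in sWAT. In eWAT 1 of its genes was called, lower, and none elsewhere. The sWAT and eWAT medians rest largely on 1 control each. Without the third sWAT control, with 48.8 CPM of Cd79a, it was −0.53. Without the first eWAT control, with 58.4 FPKM of Cd79a, it was −0.06. Cr2, found on follicular dendritic cells and mature B cells, had 11.6 CPM in that sWAT control against 0.251 to 1.79 CPM in the other sWAT libraries, and 4.96 FPKM in that eWAT control against 0.0540 to 0.293 FPKM in the other eWAT libraries. Summed lymph node stroma genes ran from 4.34 to 9.91 CPM in knockout and 8.97 to 45.7 CPM in control sWAT. In ieWAT their sum was 91.6 to 169 CPM in knockout and 48.5 to 97.0 CPM in control, with a median log2 change of 0.87 and none called. In eWAT it was 37.0 to 138 FPKM in the libraries labelled knockout and 22.8 to 199 FPKM in control, with a median of −0.22. The part of these genes in the immunoglobulin result was not tested.

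Of the 13 plasma cell genes, none was called in ieWAT, where the median log2 change was 0.12, and 1, lower, in eWAT, where it was −0.34. Of 11 T cell genes in ieWAT, 7 lay higher in every knockout library than in any control, against 3.43% of all genes, and none was called. Their summed level was 68.3 to 91.3 CPM in knockout and 26.2 to 66.5 CPM in control. In eWAT the T cell list had a median of −1.001 with none called, and its sum was 17.9 to 41.6 FPKM in the libraries labelled knockout and 31.1 to 146 FPKM in control. The part of T cell number in either result was not tested. Genes of V(D)J recombination and precursor B cells were too low to be tested in every set, with a summed level of at most 0.558 CPM in ieWAT. Among Fc receptor and antibody transport genes, 5 of 8 tested were called lower in eWAT, against 4.7% of all genes, and 0 of 9 in ieWAT, against 0%. The 5 include Fcgr2b, Fcgr3, Fcgr4 and Fcer1g. Fcgrt, the neonatal receptor that recycles IgG, was close between groups in both epididymal sets (0.0012 ± 0.14 in ieWAT and 0.03 ± 0.08 in eWAT, on the log2 scale of each).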

How the data were processed

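Per the submitters' processing notes, reads were handled with FastQC, MultiQC, Salmon and DESeq2 1.38.3; no build or annotation is named there. The deposited tables of ieWAT, isWAT, sWAT and BAT hold CPM values, judged from the values, whose columns share 1 total. The authors deposited FPKM and TPM tables for eWAT; the FPKM table was used and the TPM table served as an alternative. Every CPM value was a whole multiple of 1 read within 0.01 reads (100% of values), which gave reads and library depth. Counts had been assumed when the tests were chosen, with edgeR as the main test; because the tables hold CPM and FPKM, limma was used instead.

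Limma 3.58.1 (R 4.3.3, trended and robust eBayes) was fitted to log2(value + 1) in each set alone, over genes reaching 1 in a number of libraries equal to the smaller group, with Benjamini-Hochberg adjustment and a threshold of 0.05. On the recovered reads edgeR 4.0.16 called 0, 1, 1 and 0 genes and DESeq2 1.42.0 called 32, 259, 52 and 791 in ieWAT, isWAT, sWAT and BAT. Fold changes on the log2(value + 1) scale understate those of low genes. The scripts were tested on simulated data. Shares of reads have 95% Wilson intervals. Sequences and coordinates came from GENCODE M21 on GRCm38.

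The members and gene lists were chosen with earlier results of these data known. Genes are named when they are constant genes or Jchain, the most abundant segments of a locus or library, the 5 members with the smallest p per set, members past the threshold, or the 3 members on either side of the rule's limit; the phosphatidylcholine pairs, Igkv4-57-1 in ieWAT, Igkv4-91 and Ighv12-3 in eWAT and Cr2 were added after their values were seen. Alternatives were another pseudocount, filter, threshold or moderation, a replicate block, edgeR, DESeq2 and each library left out; sums without Ighm and the TPM table were added after seeing the data.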

Additional observations from a re-analysis of the deposited data

Results flagged for a closer look

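Several levels lay in opposite directions in 2 sets, with every knockout library on one side of every control in each. Among all genes tested, every knockout library lay above every control for 3.43% in ieWAT. Every knockout library lay below every control for 38.1% in BAT and 19.6% in eWAT. For ieWAT above and eWAT below together the share was 0.414%, and for ieWAT above and BAT below it was not counted. The differences between sets were not tested. As log2 ratios of group means, ieWAT was higher and BAT lower in knockout for the immunoglobulin sum (1.52 and −1.63), the sum without Ighm (1.68 and −2.90), the V segment sum (1.75 and −3.001), Igkc (1.76 and −3.20), Ighm (1.35 and −1.39) and Jchain (1.47 and −2.46).

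As fitted log2 changes on the log2(value + 1) scale, ieWAT was higher and eWAT lower in the libraries labelled knockout for Ighg2c (3.74 and −3.77), Ighv1-15 (1.64 and −1.58), Ighv1-53 (2.68 and −4.20) and Ighv3-8 (1.18 and −2.97). The same held for Igkv17-121 (3.69 and −3.68), Igkv8-19 (1.48 and −2.49) and Iglv1 (1.83 and −2.75). Igkv3-2 had a change of 3.09 in ieWAT, −0.97 in BAT and −5.58 in eWAT. Of these, limma called Ighv3-8 and Igkv17-121 in eWAT and none in ieWAT or BAT. Igkv17-121 in ieWAT and Igkv3-2 in BAT passed the filter only through the group where they were higher.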

How the results depend on the processing

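Calls depended on the test. In ieWAT, members called were 1 with a replicate block and 15 with DESeq2, and all genes called 1 and 32. In isWAT all genes called were 3 without the filter, 0 with plain eBayes, 7 with a replicate block and 259 with DESeq2. In sWAT they were 5 at a pseudocount of 0.1, 5 without the filter, 1 with a replicate block, 1 with edgeR and 52 with DESeq2. In BAT they were 0 at a pseudocount of 0.1, 7 without the filter, 0 with plain eBayes, 0 with a replicate block, 0 with edgeR and 791 with DESeq2, which called 3 members. In eWAT the 11 members became 7 without the filter, 26 at an adjusted p under 0.1, 7 with any value above 0, 0 with a replicate block and 0 in the TPM table, and all genes became 544, 3618, 0 and 1 without the filter, at 0.1, with the block and in the TPM table. Same-numbered libraries did not deviate together throughout (correlations of −0.56 to 0.39), so the number was not taken as a pairing.

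Without Ighm the log2 ratio of sums was −0.70 in isWAT, −1.19 in sWAT and −2.90 in BAT, and over V segments −1.05, −0.77 and −3.001. Per kilobase, the isWAT Igha share differed by −25.14 percentage points. At fixed reads, diversity differed by 0.082 (log2) for heavy V in ieWAT, and for kappa V by 0.22 in isWAT and −0.36 in sWAT. At a pseudocount of 0.1 the BAT B cell list median was −1.47. The cause was not tested. The sWAT sum, which no test called, thus differed in sign without Ighm.

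Leaving out 1 library, members called ranged from 0 to 1 in ieWAT, 0 to 3 in BAT and 0 to 20 in eWAT, and all genes from 12 to 1819 in eWAT, 0 to 2201 in BAT, 1 to 120 in sWAT, 0 to 12 in isWAT and 0 to 1 in ieWAT. The B cell list median ranged from 0.83 to 1.98 in ieWAT and −0.89 to −0.49 in BAT, and the log2 ratio of sums without Ighm from −2.83 to −0.64 in sWAT and −3.85 to −1.08 in eWAT.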
